A study of Mus musculus with 8 samples.

Results

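The genes described here are the MHC class II family of the mouse and its transactivator Ciita, 10 genes chosen by symbol out of 24537 in the count table: H2-Aa, H2-Ab1, H2-Eb1, H2-DMa, H2-DMb1, H2-DMb2, H2-Oa, H2-Ob, Cd74 and Ciita. Their polyA RNA was measured in cells sorted by FACS for EpCAM, an epithelial surface protein, from pancreatic tumours that were dissociated without culture, 1 library per mouse. The anti-LIF arm held 4 mice (mice 1 to 4), given gemcitabine and a monoclonal antibody against the cytokine LIF (leukaemia inhibitory factor). The IgG arm held 4 mice (mice 1 to 4), given gemcitabine and control IgG. The numbers run within an arm and pair no mice across arms. Every mouse of both arms was labelled as strain FVB/NJ and carried alleles that include Tp53f/f, Rosa26LSL-Luc and Pdx1-Cre, so that the p53 deletion and luciferase are switched on in cells of the Pdx1 lineage of the pancreas and not in the host's other cells. Treatment began at 42 to 43 days of age. Gemcitabine, a nucleoside analogue used as chemotherapy, was given at 50 mg/kg on days 1 and 4, and either antibody at 25 mg/kg on days 1, 3 and 5. Tumours were taken on day 6, at about 48 days of age. Each comparison is therefore anti-LIF against IgG with gemcitabine in both arms, and 4 mice against 4.

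MHC class II molecules are pairs of an alpha and a beta chain that show peptides from endosomes to CD4+ T cells. Their invariant chain, Cd74, fills the groove and steers the pair to the endosome, where H2-DM exchanges the remaining fragment for other peptides and H2-DO holds H2-DM back. Dendritic cells, B cells and macrophages are the usual producers, and epithelial cells can be induced to make class II by interferon gamma through IRF1 and CIITA. CIITA binds no DNA itself. It is recruited to a complex of RFX, CREB and NF-Y on the X and Y boxes just upstream of class II genes, and it is the limiting switch of the family. FVB/NJ mice are of the H2q type, known for lacking I-E on the cell surface.

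These boxes are shown first because they are where CIITA acts on class II genes. RefSeq promoter windows of GRCm38.p6, the assembly that mm10 names, were at hand for 7 of the 10 members, and each window spans 250 bases before to 50 after a transcript start. In 6 of the 7, an 80-base stretch of the gene's own strand, 5′ to 3′, holds the Y box core at positions -90 to -43 from the start, written in capitals as ATTGG. Read on the other strand it is CCAAT. In 4 of these the X box element GCAAC, also in capitals, precedes it.
H2-Aa: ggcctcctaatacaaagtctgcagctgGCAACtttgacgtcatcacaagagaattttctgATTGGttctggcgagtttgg
H2-Eb1: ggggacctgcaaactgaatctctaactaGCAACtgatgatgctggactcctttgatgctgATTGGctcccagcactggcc
H2-Oa: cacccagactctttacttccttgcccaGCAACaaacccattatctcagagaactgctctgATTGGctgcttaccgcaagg
H2-Ob: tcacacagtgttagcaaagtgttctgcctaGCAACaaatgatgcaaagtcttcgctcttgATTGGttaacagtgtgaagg
H2-DMb1: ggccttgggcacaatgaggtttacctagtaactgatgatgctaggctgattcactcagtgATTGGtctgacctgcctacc
H2-DMb2: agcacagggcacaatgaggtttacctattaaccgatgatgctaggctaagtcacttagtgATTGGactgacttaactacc
The stretches lie at chr17:34287852-34287931 on the minus strand for H2-Aa and, on the plus strand, at chr17:34305748-34305827 for H2-Eb1, chr17:34092276-34092355 for H2-Oa, chr17:34238788-34238867 for H2-Ob, chr17:34153070-34153149 for H2-DMb1 and chr17:34145099-34145178 for H2-DMb2. Between element and core lie 28 bases in H2-Aa, 27 in H2-Eb1, 28 in H2-Oa and 25 in H2-Ob. The stretches of H2-DMb1 and H2-DMb2 are identical at 67 of 80 positions and hold no GCAAC.

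On either strand, CCAAT occurred in 37.4% and GCAAC in 35.2% of all 32851 promoter windows, so neither alone is rare. GCAAC followed by ATTGG at a distance of 10 to 40 bases, a layout written down after the members' sequences had been seen, occurred in 230 windows (0.7%). Of the motifs of interferon signalling, the gamma-activated sequence TTCNNNGAA was found in the window of H2-DMb2 alone among the members, against 8.3% of all windows. The interferon element, GAAA and, 2 bases on, a further GAAA, was found in no member's window, against 3.44% of all windows. H2-DMa has a pair of windows, 1 with GCAAC at position -7 and the other with CCAAT at position -198, both on the minus strand, so neither window held both. A match describes letters and not a bound site.

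Per transcript length, the members spanned a wide range and kept nearly the same order in both arms. In the deposited FPKM, Cd74 was the most abundant, at 3172 ± 1559 FPKM in anti-LIF libraries and 1678 ± 450.1 FPKM in IgG libraries (mean ± SD, n = 4 each, as in the next sentences). H2-Aa followed at 1811 ± 1066 FPKM with anti-LIF and 1316 ± 434.3 FPKM with IgG, and H2-Ab1 at 986 ± 585 FPKM with anti-LIF and 643 ± 180.2 FPKM with IgG. The DM chains were much lower, with H2-DMa at 126 ± 45.9 FPKM in anti-LIF and 84.3 ± 24.3 FPKM in IgG libraries, H2-DMb1 at 83.1 ± 38.7 FPKM in anti-LIF and 69.2 ± 22.0 FPKM in IgG libraries, and H2-DMb2 at 58.3 ± 26.1 FPKM in anti-LIF and 41.7 ± 12.4 FPKM in IgG libraries. The RNA of the peptide editor was thus far rarer than that of the chains it acts on, and protein was not measured. H2-Eb1 averaged 18.7 ± 11.4 FPKM with anti-LIF and 64.5 ± 108.4 FPKM with IgG, which placed it above H2-DMb2 in the IgG arm. Without IgG mouse 3, left out after its value was seen, the IgG mean was 10.3 FPKM. Ciita, as is usual for a transcription regulator, was low, at 14.5 ± 9.70 FPKM with anti-LIF and 6.51 ± 2.14 FPKM with IgG. The DO chains were lowest, H2-Ob at 3.58 ± 1.31 FPKM with anti-LIF and 1.16 ± 0.361 FPKM with IgG, and H2-Oa at 3.49 ± 1.24 FPKM with anti-LIF and 1.95 ± 1.33 FPKM with IgG. In the anti-LIF arm the mean ± SD of neighbours in this order overlapped, except between H2-Ab1 and H2-DMa and between H2-DMb2 and H2-Eb1. All 10 members together took 0.956% ± 0.506 of the counts in anti-LIF libraries and 0.599% ± 0.186 in IgG libraries.

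Between the arms, 1 of the 10 members rose and 0 fell, and 9 did not pass. The member that rose was H2-Ob. Across all 14711 genes tested, 2303 rose (15.7%) and 2428 fell (16.5%), so the members' share is not above the background. The test was edgeR's quasi-likelihood test with Benjamini-Hochberg adjustment and a threshold of 0.05, and each log2 fold change is that of anti-LIF over IgG, ± SE. Of the 10 fold changes 9 were above 0, and their median was 0.69, against a median of -0.0063 over all tested genes. At an unadjusted p under 0.05, 4 members were higher and 0 lower. Most members were highest in anti-LIF mouse 3 and next highest in anti-LIF mouse 4, so the signs are not 10 separate observations. H2-Oa and H2-Ob were highest in anti-LIF mouse 2, and H2-Eb1 in IgG mouse 3. Of the members, H2-Ob alone had all 4 anti-LIF libraries above all 4 IgG libraries, which 2587 genes did (17.6%).

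**Figure D1:**
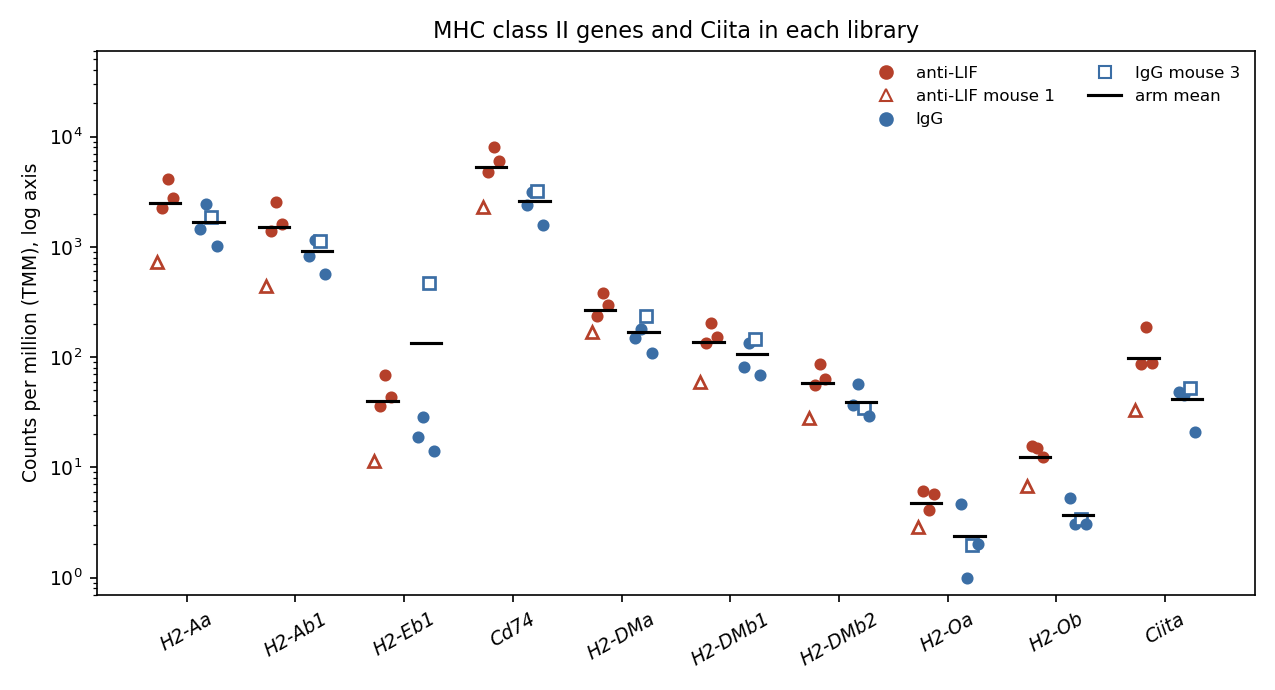
CPM (TMM scaling, log axis) of the 10 members in each library, anti-LIF on the left of each pair and IgG on the right, with 1 point per mouse and a line for the mean of the arm. Anti-LIF mouse 1 (open triangle) is lowest of all 8 for 5 members, IgG mouse 3 (open square) stands apart for H2-Eb1 at 471 CPM, and the arms are separate for H2-Ob alone.

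H2-Aa and H2-Ab1 encode the alpha and the beta chain of I-A, the classical class II molecule (mm10 chr17:34282751-34287771, minus strand, and chr17:34263227-34269418, plus strand). H2-Aa had 721, 2259, 4114 and 2790 CPM in anti-LIF mice 1 to 4, against 1455, 2428, 1863 and 1020 CPM in IgG mice 1 to 4, where CPM are counts scaled to a common library size by TMM. H2-Ab1, in the same order of mice, had 444, 1406, 2539 and 1615 CPM with anti-LIF, against 831, 1157, 1141 and 562 CPM with IgG. For both chains anti-LIF mice 3 and 4 were the highest of all 8 and anti-LIF mouse 1 was the lowest, so the arms overlapped fully. The log2 fold change was 0.55 ± 0.47 for H2-Aa (adjusted p = 0.395) and 0.70 ± 0.46 for H2-Ab1 (adjusted p = 0.265). Without anti-LIF mouse 1 they were 0.86 ± 0.31 for H2-Aa (adjusted p = 0.0698) and 1.01 ± 0.29 for H2-Ab1 (adjusted p = 0.0343), and without anti-LIF mouse 3 they were 0.19 ± 0.46 and 0.33 ± 0.43.

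Cd74, the invariant chain (chr18:60803849-60812652, plus strand), had 2282, 4735, 8118 and 6007 CPM in anti-LIF mice 1 to 4, against 2418, 3135, 3188 and 1570 CPM in IgG mice 1 to 4. Here 3 of the 4 anti-LIF libraries lay above every IgG library, and anti-LIF mouse 1 lay below 3 of the 4. The means were 5286 ± 2441 CPM with anti-LIF and 2578 ± 758 CPM with IgG (SD, n = 4 each), a log2 fold change of 1.04 ± 0.38 that just missed the threshold (adjusted p = 0.0659). Without anti-LIF mouse 1 it was 1.29 ± 0.27 and passed (adjusted p = 0.0127), and DESeq2 on all 8 libraries also called it (adjusted p = 0.0128). It did not pass without anti-LIF mouse 3 (0.76 ± 0.36, adjusted p = 0.161) or in limma-voom on all 8 libraries (0.95 ± 0.38, adjusted p = 0.0851).

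H2-Eb1 encodes the beta chain of I-E (chr17:34305867-34316674, plus strand). It had 11.5, 36.3, 68.5 and 43.6 CPM in anti-LIF mice 1 to 4, against 18.9, 28.3, 471 and 13.9 CPM in IgG mice 1 to 4. IgG mouse 3 thus held several times as much as any other library, from 9306 counts, and it ranked 3rd to 7th of the 8 libraries for the other 9 members. The log2 fold change over all 8 libraries was -1.74 ± 1.13 (adjusted p = 0.267). Without IgG mouse 3 its sign turned, to 0.97 ± 0.53 (adjusted p = 0.204), and without anti-LIF mouse 1 and IgG mouse 3 it was 1.29 ± 0.32 (adjusted p = 0.0279). Relative to H2-Ab1, H2-Eb1 was steady in the other 7 libraries, at 0.0228 to 0.0270 reads for each H2-Ab1 read, against 0.413 in IgG mouse 3. GENCODE M21 places an antisense gene, Gm20513, over part of H2-Eb1 on the minus strand, and whether reads were counted by strand is not recorded.

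Other genes were therefore compared library by library, by a scan chosen after the value of IgG mouse 3 had been seen. In IgG mouse 3, 11 tested genes lay more than 1.5 log2 units above all other 7 libraries, and 8 of the 11 are on chromosome 17, which holds 770 of the 14711 tested genes. The 8 span chr17:24163865-36042692, a stretch with 338 tested genes that contains the class II region. Among them, Atp6v0c (chr17:24163866-24169429, 20.4 CPM) and Atp6v0c-ps2 (chr17:24163865-24169395, 20.3 CPM) lie at nearly the same position, so they are not separate loci. They include Rps18, a ribosomal protein gene, with 29.8 CPM in IgG mouse 3 and at most 2.42 CPM elsewhere, D17H6S56E-5, with 231 CPM and at most 25.4 CPM elsewhere, and H2-T9, with 9.57 CPM and at most 2.49 CPM elsewhere. The same scan found 0 to 3 chromosome 17 genes in each of the other libraries. In the other direction, 144 genes of anti-LIF mouse 1 lay more than 1.5 log2 units below all other libraries, 6 of them on chromosome 17, against 0 to 32 genes in each of the other libraries and 1 in IgG mouse 3. Read ratios between genes of the region also differed in IgG mouse 3. H2-DMb1 had 4.23 reads for each read of H2-DMb2 there and 2.12 to 2.39 in the other 7 libraries, and the pseudogene H2-Ea-ps had 0.0239 reads for each H2-Ab1 read there and 0.0356 to 0.0488 in the other 7. The labels give the same strain for all 8 mice. Whether IgG mouse 3 shares the H2 haplotype of the others is not recorded and was not tested, and this limits what its values for H2-Eb1, H2-DMb1, H2-DMb2 and H2-Ea-ps can be taken to mean.

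**Figure D2:**
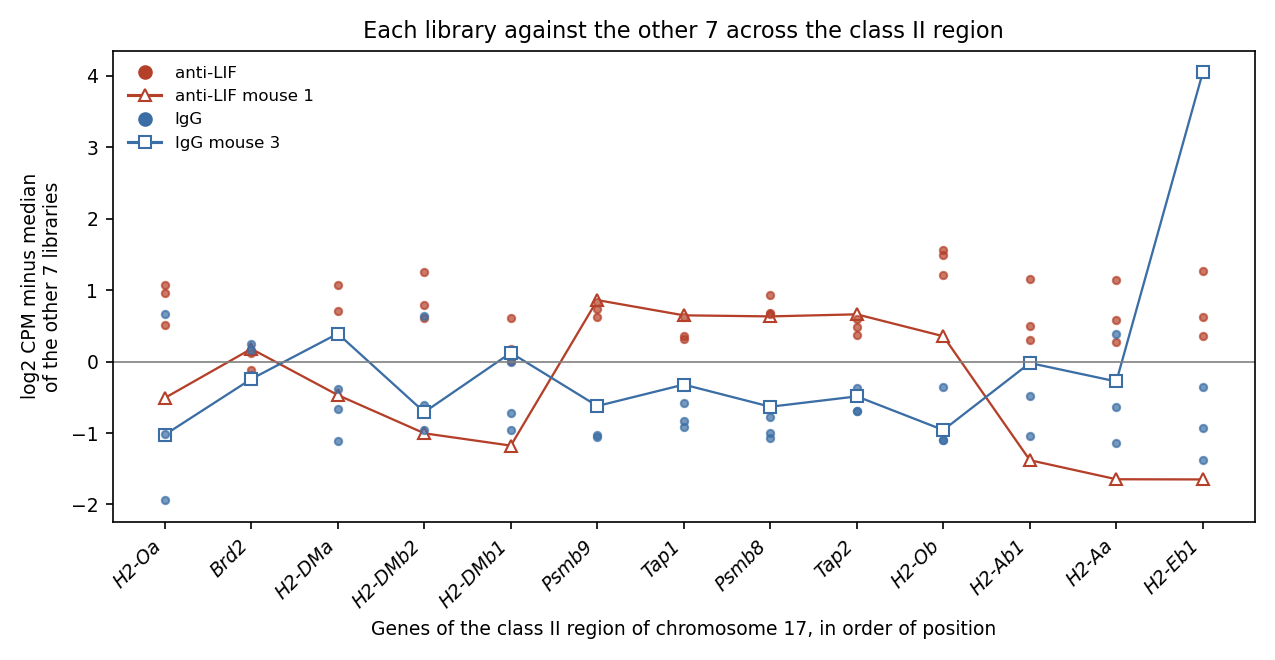
Genes of the class II region of chromosome 17 in order of position (x axis), members and the genes between them, with the log2 CPM of each library minus the median of the other 7 (y axis). Lines join anti-LIF mouse 1 (open triangles) and IgG mouse 3 (open squares), and IgG mouse 3 leaves the rest at H2-Eb1 by 4.05 log2 units while lying between -1.02 and 0.39 at the other genes shown.

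The DM chains, which edit the peptide, lie together at chr17:34122832-34139101 (H2-DMa, alpha), chr17:34145416-34151095 (H2-DMb2, beta) and chr17:34153191-34160229 (H2-DMb1, beta), all on the plus strand. H2-DMa had 170, 236, 378 and 296 CPM in anti-LIF mice 1 to 4, against 148, 180, 236 and 109 CPM in IgG mice 1 to 4. The arms overlapped through anti-LIF mouse 1 and IgG mice 2 and 3, and the log2 fold change was 0.68 ± 0.28 (adjusted p = 0.0966). H2-DMb1 had 59.2 to 203.3 CPM with anti-LIF, against 69.0 to 145 CPM with IgG, and a log2 fold change of 0.35 ± 0.37 (adjusted p = 0.489). H2-DMb2 had 27.9 to 87.3 CPM with anti-LIF, against 28.9 to 57.0 CPM with IgG, and a log2 fold change of 0.58 ± 0.33 (adjusted p = 0.203). Both beta chains were lowest in anti-LIF mouse 1 and highest in anti-LIF mouse 3. Without anti-LIF mouse 1, H2-DMa was at 0.85 ± 0.26 (adjusted p = 0.0411) and H2-DMb2 at 0.82 ± 0.24 (adjusted p = 0.0389), and DESeq2 called H2-DMa on all 8 libraries (adjusted p = 0.0470). Without anti-LIF mouse 3, H2-DMa was at 0.48 ± 0.27 (adjusted p = 0.229) and H2-DMb2 at 0.33 ± 0.31 (adjusted p = 0.466). The beta genes are close copies, so the split of reads between them is uncertain, and an antisense gene lies within H2-DMa on the other strand.

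The DO chains, inhibitors of H2-DM that are best known from B cells, were the rarest. H2-Ob, the beta chain (chr17:34238905-34245908, plus strand), had 6.70, 15.6, 14.8 and 12.3 CPM in anti-LIF mice 1 to 4, against 5.22, 3.08, 3.39 and 3.08 CPM in IgG mice 1 to 4. Every anti-LIF library lay above every IgG library, with anti-LIF mouse 1 and IgG mouse 1 nearest to each other. H2-Ob rose 3.34-fold, a log2 fold change of 1.74 ± 0.30 (adjusted p = 0.00505), resting on 761 counts in the anti-LIF arm and 271 in the IgG arm. Leaving out any 1 library kept it between 1.62 and 1.95. The call was lost when libraries were scaled to a list of macrophage genes (0.67 ± 0.42, adjusted p = 0.141) and with a macrophage score as a covariate (2.95 ± 0.69, adjusted p = 0.644), a fit in which 0 of all genes passed in edgeR (549 higher and 545 lower at an unadjusted p under 0.05). H2-Oa, the alpha chain (chr17:34092379-34095234, plus strand), had 2.87, 6.14, 4.14 and 5.71 CPM with anti-LIF, against 4.65, 0.988, 1.98 and 2.0 CPM with IgG, the mice in the same order. IgG mouse 1 lay among the anti-LIF libraries, and the log2 fold change was 0.97 ± 0.45 (adjusted p = 0.123). Without IgG mouse 1 it was 1.5 ± 0.37 (adjusted p = 0.0232). An antisense gene, BC051537, spans the whole of H2-Oa on the other strand.

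Ciita (chr16:10480072-10527640, plus strand) had 33.5, 86.6, 186 and 88.2 CPM in anti-LIF mice 1 to 4, against 48.0, 45.7, 52.6 and 20.8 CPM in IgG mice 1 to 4. As for Cd74, 3 of 4 anti-LIF libraries lay above every IgG library and anti-LIF mouse 1 below 3 of 4. The log2 fold change, 1.24 ± 0.48, was the second highest of the members' fold changes above 0 and missed the threshold (adjusted p = 0.0745). Without anti-LIF mouse 1 it was 1.53 ± 0.36 (adjusted p = 0.0184), without anti-LIF mouse 3 it was 0.74 ± 0.39 (adjusted p = 0.203), and DESeq2 on all 8 libraries gave an adjusted p of 0.0195. Ciita is known for separate promoters in dendritic cells, B cells and interferon-induced cells. The counts and the FPKM each rest on 1 transcript of it, so promoter use could not be read. That transcript had 5644 bases for the counts and 5146 bases for the FPKM. Dexi overlaps it on the opposite strand.

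Leaving out anti-LIF mouse 1 changed the call of 5 of the 10 members. It ranked lowest of 8 for H2-Aa, H2-Ab1, H2-Eb1, H2-DMb1 and H2-DMb2, 7th for Cd74 and Ciita and 6th for H2-DMa. Without it 6 of the 10 members rose, namely H2-Ab1, H2-DMa, H2-DMb2, H2-Ob, Cd74 and Ciita, and 0 fell, where 13.7% of all genes tested rose. Without anti-LIF mouse 1 and IgG mouse 3, an alternative added after the data were seen, 6 rose as well, with H2-Eb1 in place of H2-DMb2, and 12.4% of all genes did. The median log2 fold change of the members was then 1.11, with 10 of 10 above 0. Without IgG mouse 1, 2 members rose, H2-Oa and H2-Ob, where 13.7% of all genes rose. DESeq2 on all 8 libraries called 4 of the 9 members to which it gave an adjusted p, where 19.6% of all genes rose.

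**Figure D3:**
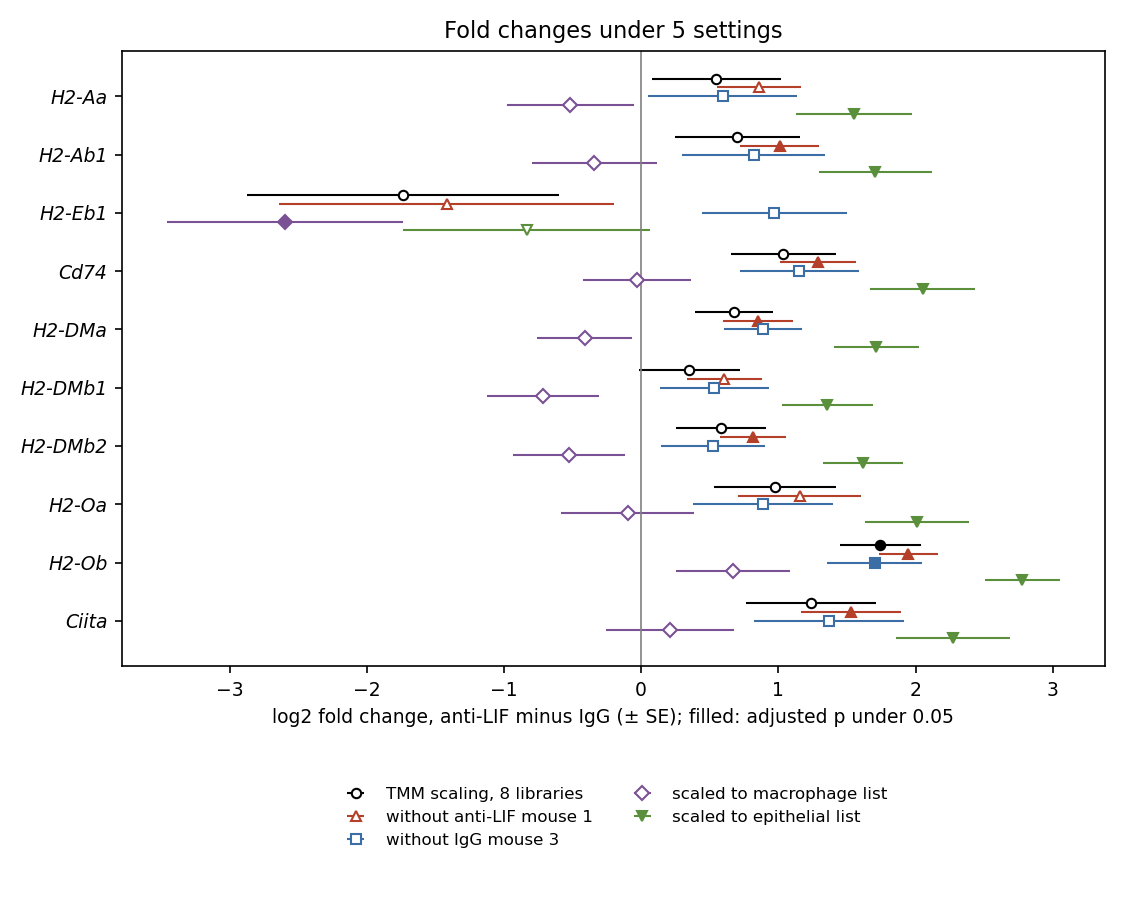
Log2 fold change (anti-LIF minus IgG, ± SE, x axis) of each member under 5 settings, with filled symbols at an adjusted p under 0.05. H2-Ob is filled in 4 of the 5, 6 of the 10 members are filled without anti-LIF mouse 1, and scaling to the macrophage or to the epithelial list shifts every member to the left or to the right.

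The fold changes depend on what the libraries are scaled to, and markers of other cell types moved with the arms. Relative to TMM, scaling to the 14 macrophage genes of the marker list moved the median of all genes to -1.19 and scaling to the 12 epithelial genes moved it to 1.08. Under the first, 0 members rose and 1 fell, H2-Eb1 (-2.60 log2, adjusted p = 0.0105), where 1.07% of all genes rose and 83.2% fell. The members' median was -0.38, and only H2-Ob and Ciita stayed above 0. Under the second, 9 of 10 members rose, all but H2-Eb1, with a median of 1.71, where 77.9% of all genes rose. Scaling by library size alone moved the median of all genes to -0.16, with 1430 genes higher and 3567 lower, and left H2-Ob the 1 member called. Relative to the median of all genes under the same scaling, the members' median lay 0.70 higher with TMM, 0.81 higher with the macrophage list and 0.63 higher with the epithelial list.

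The cells had been sorted for EpCAM, yet macrophage markers were abundant in every library and higher with anti-LIF. The summed level of 14 macrophage genes was 50487, 25199, 25486 and 28620 CPM in anti-LIF mice 1 to 4, against 13972, 11372, 15432 and 12717 CPM in IgG mice 1 to 4. Of these 14 genes 10 rose and 0 fell, with a median log2 fold change of 1.36. Of all genes tested 15.7% rose and 16.5% fell. Csf1r, the receptor for the macrophage growth factor, averaged 2714 ± 898 CPM with anti-LIF and 933 ± 154 CPM with IgG, and Adgre1, which encodes F4/80, averaged 420 ± 111 CPM with anti-LIF and 159 ± 18.2 CPM with IgG. Of 12 epithelial genes 11 fell and 0 rose, and their sum was 2158 to 3664 CPM with anti-LIF and 5583 to 6653 CPM with IgG. Epcam itself fell by 0.91 ± 0.20 on the log2 scale (adjusted p = 0.0102) and was lowest, at 194 CPM, in anti-LIF mouse 1. Of 9 acinar genes 8 rose, with a median of 3.39. The part of these cell types in the class II values was not tested, and in such bulk samples fewer cells of a type and less RNA per cell cannot be told apart.

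The class II level for a given macrophage sum differed between libraries, most of all in anti-LIF mouse 1. H2-Aa, H2-Ab1 and Cd74 together came to 3447, 8400, 14771 and 10412 CPM in anti-LIF mice 1 to 4, against 4704, 6719, 6191 and 3153 CPM in IgG mice 1 to 4. Per 100 CPM of macrophage genes this was 6.83, 33.3, 58.0 and 36.4 with anti-LIF, against 33.7, 59.1, 40.1 and 24.8 with IgG. Anti-LIF mouse 1 had the highest macrophage sum of all 8 libraries and the lowest class II level for that sum. The other 7 libraries overlapped between the arms on this measure. In either sum taken alone, the anti-LIF libraries other than mouse 1 lay above every IgG library.

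**Figure D4:**
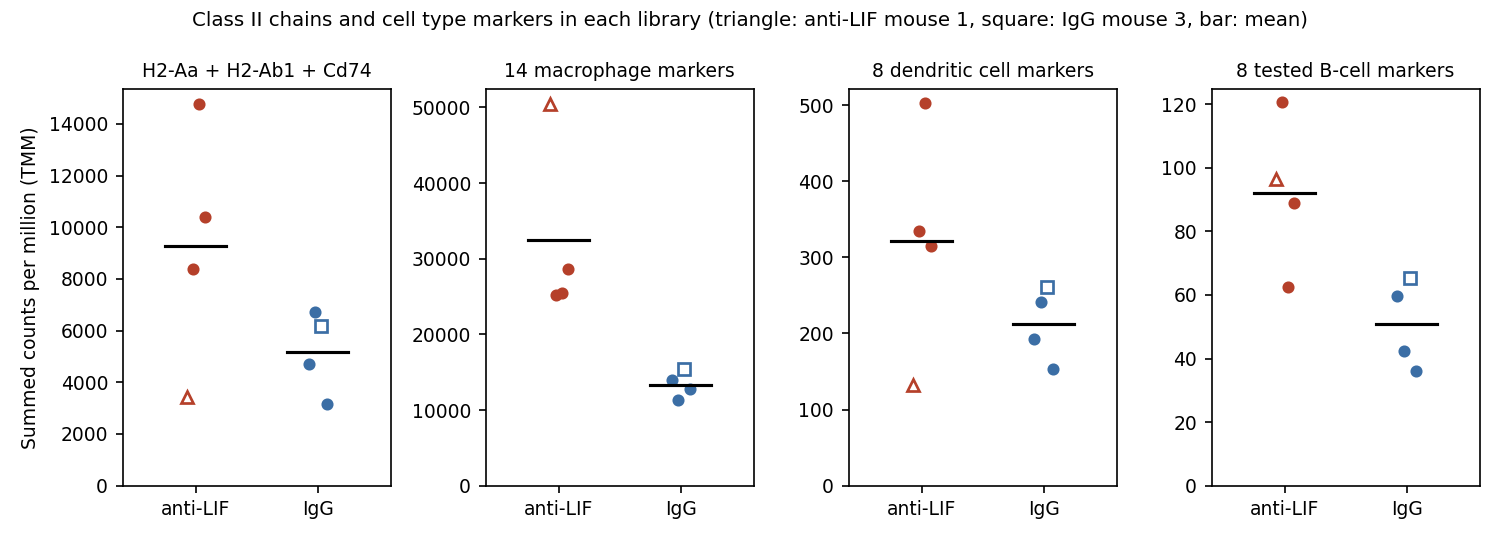
Summed CPM (y axis, from 0, its own scale in each panel) of the main class II chains and of the macrophage, dendritic and B-cell lists, anti-LIF on the left and IgG on the right, with 1 point per mouse and a bar for the mean. In anti-LIF mouse 1 (open triangle) the macrophage sum is the highest, at 50487 CPM, while the class II sum of H2-Aa, H2-Ab1 and Cd74 is 3447 CPM, the lowest of its arm.

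Markers of the other professional antigen-presenting cells were mostly far below those of macrophages. Of the dendritic genes fixed as defining, Zbtb46 averaged 5.49 ± 1.39 CPM with anti-LIF and 3.89 ± 1.29 CPM with IgG (adjusted p = 0.183). Flt3 averaged 1.78 ± 0.298 CPM with anti-LIF and 2.43 ± 2.28 CPM with IgG (adjusted p = 0.600). Of 8 dendritic genes 2 rose and 0 fell, where 15.7% of all genes rose and 16.5% fell. With 1 library left out, 1 rose without IgG mouse 2, and 1 fell without IgG mouse 3, among 7 tested. On all 8 libraries, 1 fell in DESeq2 and 1 when scaled by library size alone, where 19.3% and 24.2% of all genes fell. Of the 8 fold changes 3 were below 0. The lowest, picked after its values were seen, was that of Clec9a (log2 -1.24 ± 0.45, adjusted p = 0.0619). The 2 that rose, named after their values were seen, were Cd209a, at 20.2 to 62.7 CPM with anti-LIF and 2.09 to 10.6 CPM with IgG (log2 2.74 ± 0.55, adjusted p = 0.00816), and Siglech, a marker of plasmacytoid dendritic cells, with 0.974 ± 0.194 CPM with anti-LIF and 0.363 ± 0.164 CPM with IgG (log2 1.40 ± 0.37, adjusted p = 0.0212). The sum of the list, most of it Itgax, was 133 to 503 CPM with anti-LIF and 153 to 261 CPM with IgG. Like H2-Aa and H2-Ab1 it was lowest in anti-LIF mouse 1 and highest in anti-LIF mouse 3. Of 8 tested B-cell genes 3 rose and 0 fell, with sums of 62.7 to 121 CPM with anti-LIF and 36.2 to 65.5 CPM with IgG. The 3 that rose, also named after their values were seen, were Fcer2a (6.53-fold, adjusted p = 0.00418), Cr2 (7.21-fold, adjusted p = 0.0156) and Ms4a1 (3.81-fold, adjusted p = 0.0122), each below 7 CPM on average in both arms. Cd79a, of the B-cell receptor, averaged 6.82 ± 2.80 CPM with anti-LIF and 4.51 ± 3.02 CPM with IgG (adjusted p = 0.369). Of 5 tested T-cell genes 3 rose, again named after their values were seen: Cd4 (3.0-fold, adjusted p = 0.00965), Cd3g (4.04-fold, adjusted p = 0.0209) and Foxp3 (1.51-fold, adjusted p = 0.0105), and Cd3e averaged 1.20 ± 0.595 CPM with anti-LIF and 0.473 ± 0.176 CPM with IgG (adjusted p = 0.0509). With TMM and all 8 libraries, 0 genes of the fibroblast list (7 tested) and 0 of the endothelial list (5 tested) passed in edgeR, at an adjusted p or at an unadjusted p under 0.05, and in DESeq2 0 passed at an adjusted p. Scaled to the macrophage list, 3 fibroblast and 3 endothelial genes fell, where 83.2% of all genes fell. Scaled to the epithelial list, 6 fibroblast and 3 endothelial genes rose, where 77.9% of all genes rose. Without anti-LIF mouse 2, 1 gene of each list was lower at an unadjusted p under 0.05.

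Ratios between members within a library do not depend on the scaling, and 6 were compared between the arms by an exact two-sided permutation test (log2 ratio of reads per kilobase, 70 assignments, smallest possible p 0.0286, adjusted over the 6). The ratio of Cd74 to H2-Ab1 was 1.68 ± 0.31 with anti-LIF and 1.24 ± 0.042 with IgG (SD, n = 4 each), and all anti-LIF libraries, at 1.43 to 2.12, lay above all IgG libraries, at 1.19 to 1.3. That gave the smallest exact p the design allows, 0.0286, and an adjusted p of 0.114, so none of the 6 passed. Ciita to H2-Ab1 was -6.18 ± 0.22 with anti-LIF and -6.74 ± 0.28 with IgG, a difference of 0.56 (exact p = 0.0571, adjusted p = 0.114). H2-Aa to H2-Ab1, the chains of 1 dimer, was 0.88 ± 0.048 with anti-LIF and 1.02 ± 0.15 with IgG, a difference of -0.14 (exact p = 0.0571, adjusted p = 0.114). For H2-DMa to H2-Ab1 the difference was 0.16 (exact p = 0.857, adjusted p = 1), and anti-LIF mouse 1 stood apart with -1.86 against -3.23 to -2.75 in the other 7 libraries. Without that mouse the difference was -0.14. H2-Oa to H2-DMa differed by 0.44 (exact p = 0.486, adjusted p = 0.729) and H2-Eb1 to H2-Ab1 by -0.89 (exact p = 1, adjusted p = 1), the last turning to 0.14 without IgG mouse 3.

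Of the class II region's other genes (H2-Ea-ps, H2-Eb2 and Btnl2), 1 of 3 tested rose and 0 fell, where 15.7% of all genes rose. Btnl2, a butyrophilin-like gene of the same region, rose 7.25-fold, with 10.3 ± 2.46 CPM with anti-LIF and 1.42 ± 0.706 CPM with IgG (log2 2.86 ± 0.37, adjusted p = 0.00324). The I-E alpha pseudogene H2-Ea-ps averaged 65.7 ± 32.3 CPM with anti-LIF and 32.2 ± 8.12 CPM with IgG (log2 1.03 ± 0.41, adjusted p = 0.0819), and it passed without anti-LIF mouse 1 (1.33 ± 0.20, adjusted p = 0.00482). H2-Eb2, a second beta-chain gene, averaged 1.46 ± 0.786 CPM with anti-LIF and 0.759 ± 0.512 CPM with IgG (adjusted p = 0.227). Scaled to the macrophage list, H2-Ea-ps stood at -0.0397 and H2-Eb2 at -0.0942, and Btnl2 remained the 1 called.

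Between the class II members on chromosome 17 lie the genes of the class I pathway and Brd2. Psmb8 and Psmb9, subunits of the immunoproteasome, and Tap1 and Tap2, the peptide transporter, all rose, with log2 fold changes of 0.96 ± 0.12, 0.97 ± 0.14, 0.82 ± 0.15 and 0.71 ± 0.10 (adjusted p = 0.00295, 0.00369, 0.00580 and 0.00388). Brd2, a chromatin reader, stood at -0.0045 ± 0.11 (adjusted p = 0.979). Of 8 class I genes 7 rose and 0 fell, with a median of 0.92, where 15.7% of all genes rose and 16.5% fell. Nlrc5, the class I counterpart of Ciita, averaged 48.1 ± 13.5 CPM with anti-LIF and 18.2 ± 3.92 CPM with IgG (log2 1.40 ± 0.22, adjusted p = 0.00461), and B2m, the class I light chain, averaged 1489 ± 414 CPM with anti-LIF and 609 ± 94.1 CPM with IgG (log2 1.29 ± 0.21, adjusted p = 0.00471). The gene that did not pass, H2-T23, chosen after its values were seen, was also highest in IgG mouse 3, at 23.9 CPM, and without that mouse 8 of 8 rose. The class I sum was taken over H2-K1, H2-D1 and B2m, and the class II sum over H2-Aa, H2-Ab1 and Cd74. Class I differed from class II in anti-LIF mouse 1. There the class I sum was 6722 CPM, the highest of the anti-LIF range of 3555 to 6722, against 1834 to 2550 CPM with IgG. The ratio of the class II sum to the class I sum was 0.513 in anti-LIF mouse 1 and 2.36 to 3.17 in the other anti-LIF mice, against 1.41 to 3.66 with IgG, and whether the arms differ in it was not tested. Scaled to the macrophage list, 0 of the 8 class I genes rose, 1 fell and their median was -0.30, where 1.07% of all genes rose, 83.2% fell and the median was -1.19.

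Of 12 genes that process antigen for class II, 5 rose and 2 fell, with a median of 0.47. Of all genes tested 15.7% rose and 16.5% fell. Ifi30, the lysosomal thiol reductase, rose 1.83-fold, with 637 ± 46.4 CPM with anti-LIF and 349 ± 42.1 CPM with IgG (adjusted p = 0.00315). Ctsz, a cathepsin, averaged 962 ± 117 CPM with anti-LIF and 555 ± 52.7 CPM with IgG (adjusted p = 0.00444), and Sppl2a, which cuts the last stub of the invariant chain from the membrane, averaged 201 ± 16.1 CPM with anti-LIF and 149 ± 6.02 CPM with IgG (adjusted p = 0.00655). Ctss, the cathepsin that trims the invariant chain in professional antigen-presenting cells, was at 3202 ± 256 CPM with anti-LIF and 3218 ± 531 CPM with IgG (log2 -0.0072 ± 0.16, adjusted p = 0.976). Scaled to the macrophage list, 0 of the 12 rose and 9 fell, where 83.2% of all genes fell. With 1 library left out, 0 to 2 of the 12 fell, 0 of them without IgG mouse 2.

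Of 22 tested regulators of class II, 9 rose and 0 fell, with a median of 0.22, where 15.7% of all genes rose and 16.5% fell. At an unadjusted p under 0.05, 1 was lower, and DESeq2 called 0 lower. Spi1, which encodes PU.1 of myeloid and B cells, averaged 258 ± 41.5 CPM with anti-LIF and 150 ± 21.4 CPM with IgG (adjusted p = 0.00587), and Irf8, of the same lineages, 181 ± 36.5 CPM with anti-LIF and 105 ± 12 CPM with IgG (adjusted p = 0.00676). Rfx5, the DNA-binding partner of CIITA at the X box, was higher by 0.47 ± 0.14 log2 (adjusted p = 0.0347) and Irf1, which acts on the interferon-induced Ciita promoter, by 0.35 ± 0.11 (adjusted p = 0.0357). The call of Rfx5 held with 1 of the 8 libraries left out, anti-LIF mouse 2, and was lost without any other (adjusted p = 0.0528 to 0.0760). That of Irf1 held without anti-LIF mouse 2 or IgG mouse 1 and was lost without any other (adjusted p = 0.0667 to 0.0925). With 1 library left out, 6 to 9 of the 22 regulators rose, where 9.89% to 14.9% of all genes rose. Among these fits, 1 regulator fell without anti-LIF mouse 2 and 0 fell in any other. Scaled by library size alone, 6 rose and 1 fell, where 9.72% of all genes rose and 24.2% fell. Without anti-LIF mouse 1 and IgG mouse 3, 6 rose as well, where 12.4% of all genes did. Scaled to the macrophage list, 0 of the 22 rose and 17 fell, where 83.2% of all genes fell. Ifng itself had 1 count in the anti-LIF arm and 1 in the IgG arm and was not tested. Of 11 tested interferon gamma targets 9 rose and 0 fell, with a median of 1.04, and Gbp3, a guanylate-binding protein, averaged 45.7 ± 9.06 CPM with anti-LIF and 16.4 ± 2.91 CPM with IgG (log2 1.48 ± 0.17, adjusted p = 0.00284). Scaled to the macrophage list, 0 of the 11 rose and 1 fell, with a median of -0.19, where 1.07% of all genes rose and 83.2% fell. With 1 library left out, 6 to 9 of the 11 rose. The count was 6 without anti-LIF mouse 3 and without IgG mouse 2, 3 or 4, each left out alone. In those fits 9.89% to 12.2% of all genes rose.

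Genes whose level varied most like the class II chains within the arms were sought among 10173 genes with a mean of at least 10 CPM. The measure was Pearson's r over 8 libraries between log2 CPM less the mean of the arm and the same value averaged over H2-Aa, H2-Ab1, H2-Eb1 and Cd74, given as a description, and all points share the libraries' scaling and their makeup of cells. The 5 closest were Fam129a (r = 0.983), Icosl (0.982), Dock10 (0.981), Cd52 (0.969) and Plcl1 (0.961). Icosl, a co-stimulatory ligand, averaged 95.2 ± 14.8 CPM with anti-LIF and 55.8 ± 10.5 CPM with IgG and rose (adjusted p = 0.00914), as did Dock10, with 156 ± 17.2 CPM with anti-LIF and 105 ± 8.99 CPM with IgG (adjusted p = 0.00583), and Plcl1, with 16.8 ± 2.07 CPM with anti-LIF and 9.25 ± 0.910 CPM with IgG (adjusted p = 0.00440). Fam129a and Cd52, a leukocyte surface protein, did not pass (adjusted p = 0.192 and 0.183). The order rested in part on H2-Eb1. With H2-Eb1 left out of the average, a choice made after the data were seen, the 5 closest were Fxyd6 (r = 0.993), Slc22a15 (0.989), Mical1 (0.980), Serpini1 (0.978) and Itgax (0.975), and Epcam ranked 9th (r = 0.966). On the measure with H2-Eb1, Epcam ranked 96th (r = 0.854). Adgre1 and Csf1r had r of -0.44 and -0.38 with H2-Eb1 in the average and of -0.70 and -0.60 without it. Anti-LIF mouse 1 had the highest Adgre1 and Csf1r of all 8 libraries (577 and 4019 CPM). It also had the lowest Epcam (194 CPM), H2-Aa and H2-Ab1. How far these r rest on that library was not tested.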

How the data were processed

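PolyA RNA from 8 libraries of EpCAM+ sorted tumour cells was analysed, 4 anti-LIF and 4 IgG, and arms were taken from the labels, with mice numbered within an arm in order of accession. Per the submitters' processing notes, reads were checked with FastQC 0.11.2 and aligned to mm10 with STAR 2.4.0k, HOMER was used, and edgeR 3.6.8 served the authors' own comparison. Per the file headers, the deposited raw counts are exonic reads of 1 transcript per gene from HOMER, and the deposited FPKM are scaled by transcript length and library total. Neither the strand setting nor the annotation version is recorded there. All 168000 FPKM values of the 21000 transcripts in both tables matched the counts within 0.002. Of the 10 members 8, all but Cd74 and Ciita, used the same transcript in both. Columns not used numbered 0.

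Counts in genes were 15135457 to 18562458 with anti-LIF and 16175021 to 18972281 with IgG. The labels name no molecular identifiers, so any error taken from counts covers counting alone. No pair of libraries of an arm agreed within sampling noise (chi-square per degree of freedom 15.8 to 79.0). Whether tumours were handled on separate days is not given.

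In R 4.3.3, genes were kept by filterByExpr (14711 of 24537), scaled by TMM and tested with edgeR 4.0.16 (quasi-likelihood, Benjamini-Hochberg over all tested genes, threshold 0.05). Ratios added 0.5 to each count, and their test was exact. Alternatives were RLE, library size, macrophage-list and epithelial-list scaling, no filter or a minimum of 1 CPM, DESeq2 1.42.0, limma 3.58.1 (voom, and log2 FPKM with pseudocounts of 1 and 0.1), robust dispersion, a macrophage score (mean log2 CPM, prior count 2) as a covariate, 5 counts added to ratios, and each library left out. The count test was checked on simulated counts. Named were the 10 members, the 3 lowest p of each of 5 companion lists with Rfx5, Irf1, Nlrc5 and Ctss, defining cell type markers and the 5 genes most like the class II chains, less 2 genes that are not reported here, as 1 allele of the mice is not; genes between the members on chromosome 17 were added by position. The members, lists, ratios and tests were chosen with earlier results of these data known. Promoter windows are RefSeq's, on GRCm38.p6, and overlapping genes are from GENCODE M21.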

Additional observations from a re-analysis of the deposited data

Results flagged for a closer look

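Of 90 sets of 4 libraries examined (the named genes and the ratios, in each arm), 8 held a library far from the other 3, by a rule that chance meets in about 1 in 20 sets. IgG mouse 3 stood high for H2-Eb1, at 471 CPM where the next IgG library had 28.3, and for the log2 ratio of H2-Eb1 to H2-Ab1, at -1.76 where the next had -5.82. It also stood high for Adgre1, at 186 CPM where the next had 152. Anti-LIF mouse 1 stood low for Epcam, at 194 CPM where the next had 326, and for Flt3, at 1.34 CPM where the next had 1.88. IgG mouse 1 was high for H2-Ob, at 5.22 CPM where the next had 3.39, and still below every anti-LIF library. Anti-LIF mouse 3 was high for Psmb8, at 113 CPM where the next had 95.4. Anti-LIF mouse 4 was high for the log2 ratio of H2-Aa to H2-Ab1, at 0.95 where the next had 0.86.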

How the results depend on the processing

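No paired analysis was possible because no mouse is in both arms. H2-Ob was called higher under 19 of 21 alternatives. The exceptions were scaling to the macrophage list (0.67, adjusted p = 0.141) and the macrophage score as a covariate (2.95, adjusted p = 0.644). That covariate left 0 genes called in edgeR (549 higher and 545 lower at an unadjusted p under 0.05), and 0 members. With 1 library left out, 1 to 6 members were called higher and 0 lower, and of all genes 1467 to 2218 higher and 1507 to 2136 lower. The counts fell to 1467 higher and 1507 lower without IgG mouse 2, and to 1521 lower without anti-LIF mouse 3. Members called higher numbered 0 with macrophage scaling (1 lower), 9 with epithelial scaling, 4 in DESeq2, 6 without anti-LIF mouse 1, 2 without IgG mouse 1 and 6 without anti-LIF mouse 1 and IgG mouse 3. All genes called higher numbered 1430 with library size alone, 158 with macrophage scaling, 11454 with epithelial scaling and 1535 for log2 FPKM with a pseudocount of 0.1. All genes called lower numbered 12233 with macrophage scaling and 147 with epithelial scaling.

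Scaling to the macrophage list shifts every gene down, and it turned the sign of H2-Aa (-0.52), H2-Ab1 (-0.34), H2-DMa (-0.41), H2-DMb1 (-0.71), H2-DMb2 (-0.53), H2-Oa (-0.099), Cd74 (-0.032), H2-Ea-ps (-0.040), H2-Eb2 (-0.094), Ifi30 (-0.32), Ctsz (-0.41), Sppl2a (-0.77), Spi1 (-0.42), Irf8 (-0.44), Tap2 (-0.48), Psmb8 (-0.19), Psmb9 (-0.20), Rfx5 (-0.76), Irf1 (-0.84), Zbtb46 (-0.66), Cd79a (-0.48), Fam129a (-0.74), Icosl (-0.36), Dock10 (-0.57), Cd52 (-0.68) and Plcl1 (-0.29). With the covariate, Irf8 (-0.073), Rfx5 (-0.15) and Cd79a (-0.89) turned. Scaling to the epithelial list, which shifts every gene up, turned Ctss (1.08), Flt3 (0.65) and Epcam (0.12), itself a gene of that list. Ctss, at -0.0072 with TMM, also turned with RLE scaling (0.0017), DESeq2 (0.0017), voom (0.0080), without anti-LIF mouse 1 and IgG mouse 3 (0.052) and with 1 library left out (-0.11 to 0.078). Flt3 turned with voom (0.043) and without IgG mouse 1 (0.41, of a range from -0.78 to 0.41). H2-Eb1 turned without IgG mouse 3 (0.97, of a range from -2.12 to 0.97) and without anti-LIF mouse 1 and IgG mouse 3 (1.29). With 1 library left out, the difference in the ratio of H2-Eb1 to H2-Ab1 ran from -1.26 to 0.14 and that of H2-DMa to H2-Ab1 from -0.14 to 0.31, while those of H2-Aa to H2-Ab1 (-0.20 to -0.074), Cd74 to H2-Ab1 (0.29 to 0.52), H2-Oa to H2-DMa (0.045 to 0.87) and Ciita to H2-Ab1 (0.48 to 0.69) kept their sign. Where no construction of the alternative is named, the cause was not tested.

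The smallest exact p is 0.0286 with 4 mice against 4. No ratio could therefore pass after adjustment over the 6 unless at least 4 of them reached the smallest p. H2-Oa, with 289 and 175 counts in the anti-LIF and IgG arms, had the fewest counts of the members. DESeq2 gave H2-Eb1 no adjusted p.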
